A study of Homo sapiens with 6 samples.

Results

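The genes of the lysosome followed here were a list of 48 that covers its MiT-family regulators, its membrane proteins, its proton pump, its proteases and its glycan and lipid enzymes. Members were taken by gene symbol, and 47 of the 48 were measured among the 19775 genes of the array. GLB1, which encodes the lysosomal beta-galactosidase, was left out because its probe set carries several gene symbols. RNA came from 3 samples of SH-SY5Y, a human NB cell line with the ALKF1174L mutation that was kept without drug, and from 3 samples of SY5Y-TR1, a TAE684-resistant subline of it with the same mutation that was kept in 1 µM of the ALK inhibitor TAE684. SY5Y-TR1 is a clone expanded after months of rising TAE684 doses, so the effects of clonal selection, of resistance and of drug in the medium cannot be told apart. Each sample was read on an Affymetrix U133 Plus 2.0 array, and the values are log2 signals made with robust multi-array average (RMA). The labels call the 3 arrays of each line biological replicates without describing the cultures, so p-values here measure the spread between these samples, which may be technical.

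Lysosomes are acidic organelles in which hydrolases break down proteins, glycans and lipids that arrive by endocytosis and autophagy. A proton pump of the vacuolar type keeps the lumen acidic, and heavily glycosylated membrane proteins line the inner face. TFEB, TFE3 and MITF are related basic helix-loop-helix leucine zipper factors that bind E-box letters in the promoters of many lysosomal genes, and the kinase complex mTORC1 holds them in the cytoplasm when nutrients are plentiful. The arrays read RNA only, so neither the location of these factors nor enzyme activity was measured.

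Arrays of the same line correlated at 0.997 to 0.998 (Pearson's r, over probe sets) and arrays of different lines at 0.959 to 0.960. AXL, a receptor tyrosine kinase, was 13.6-fold higher in SY5Y-TR1. Genes of unrelated tissues set the background level, a log2 signal of 5.80. Markers of noradrenergic neuroblasts were present in SH-SY5Y, where 10 of 11 measured were above that level, TH being the exception. In SY5Y-TR1 10 of the 11 were lower, and their summed linear signal ran from 4790 to 4970 against 20000 to 20900 in SH-SY5Y. The fall of these markers goes along with every difference described here, and its part in them was not tested. In bulk RNA, fewer cells of a type and less RNA per cell cannot be told apart.

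Most lysosomal genes were higher in SY5Y-TR1, by modest amounts. Of the 47 measured members, 35 were higher (74.5%) and 7 lower (14.9%) at a Benjamini-Hochberg adjusted p under 0.05 from limma, and 5 did not pass. Over all 19775 genes the same rule called 28.5% higher and 24.3% lower, and over the 12964 genes above the background level it called 37.1% higher and 34.1% lower. Housekeeping genes, 19 measured and all above that level, were also higher more often (52.6%) than lower (15.8%), with a median log2 fold change of 0.16. With arrays centred on housekeeping genes, the shares over all genes became 21.5% and 31.5%, whereas the members then stood at 35 higher and 8 lower. The median log2 fold change was 0.59 over the members and 0.04 over all genes. It was 0.39 over the members when all probe sets of a gene were averaged. On 35 members every SY5Y-TR1 array read above every SH-SY5Y array, on 8 every array read below, and on 4 the lines overlapped. Over all genes these shares were 32.6% above and 27.2% below. At a limit of 2-fold, 6 members were higher (12.8%) and 0 lower, beside 5.36% and 5.99% of all genes. Over the genes above the background level these shares were 7.9% and 8.7%. By limma with no limit on the fold 7 members were lower, and the lowest log2 fold change of a member was -0.90.

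**Figure D1:**
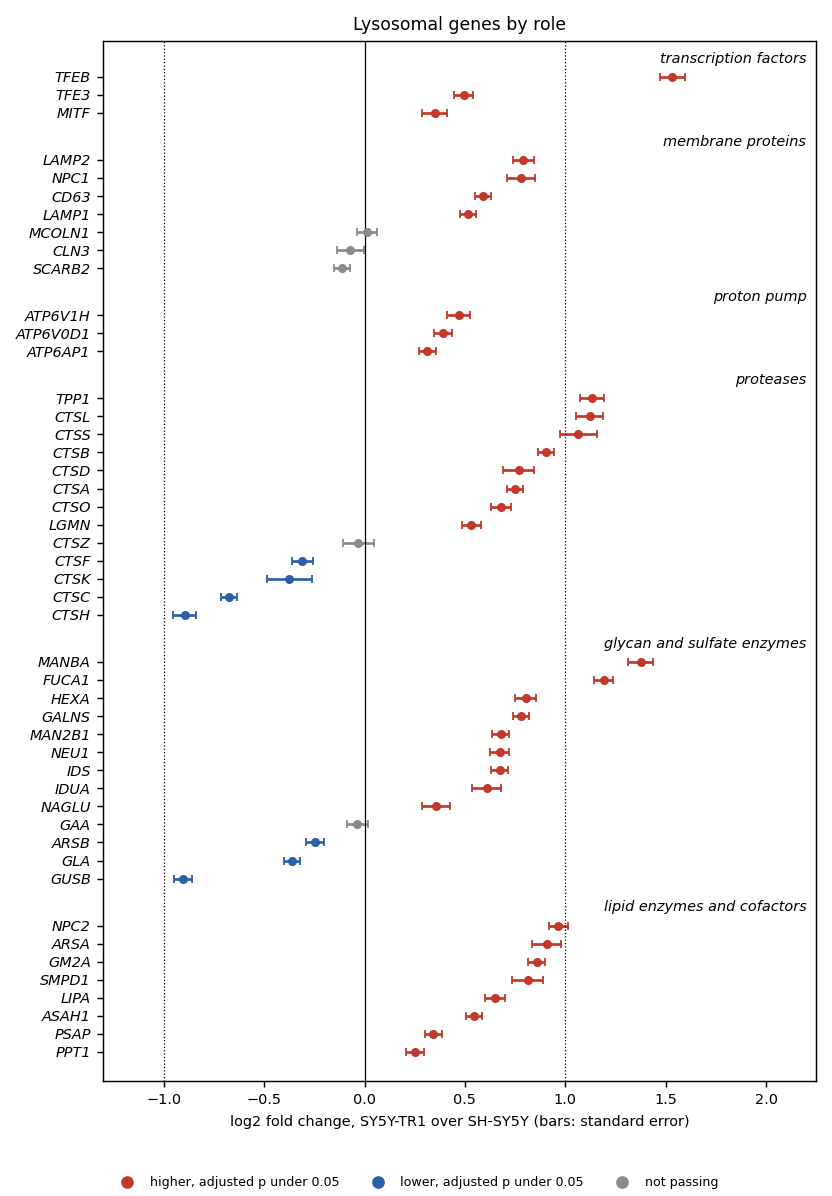
Difference in mean log2 signal between the lines (SY5Y-TR1 minus SH-SY5Y, x axis) for the 47 measured lysosomal genes grouped by role (y axis), with the standard error as a bar and n = 3 arrays in each line; red genes were higher and blue genes lower at an adjusted p under 0.05 from limma, grey genes did not pass, and dotted lines mark 2-fold. All 8 lipid enzymes and cofactors lie to the right of 0, whereas the proteases and the glycan and sulfate enzymes lie on both sides.

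All 3 regulators were higher in SY5Y-TR1 at any fold, beside 37.1% of all genes above the background level. On the brightest probe set of each gene TFEB had the largest log2 fold change of the members. With all probe sets of a gene averaged it came after MANBA, LAMP2 and CTSL (log2 fold changes 1.11, 1.38, 1.31 and 1.12 in that order). TFEB read 6.64, 6.47 and 6.66 in SH-SY5Y and 8.12, 8.14 and 8.12 in SY5Y-TR1. The lines were far apart beside the narrow spread within each. The fold was 2.89 (log2 fold change 1.53, limma's adjusted p = 9.98e-07, standard error 0.06). The other TFEB probe set was 1.61-fold higher, so both passed with unequal sizes. TFE3, its close relative, read 9.81, 9.70 and 9.79 in SH-SY5Y and 10.22, 10.26 and 10.30 in SY5Y-TR1, a 1.41-fold difference (standard error 0.05 on the log2 scale, adjusted p = 0.000113 from limma). MITF, better known as the master factor of melanocytes, read 7.86, 7.88 and 7.93 against 8.21, 8.16 and 8.36, which is 1.27-fold higher (adjusted p = 0.00234 from limma). Neither pair of lines overlapped. Of 5 measured melanocyte markers, TYR, MLANA and SLC45A2 lay at or under the background level in both lines, PMEL lay above it in both without passing (means 6.17 and 6.25), 0 were higher, and TYRP1 was lower from within the background.

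**Figure D2:**
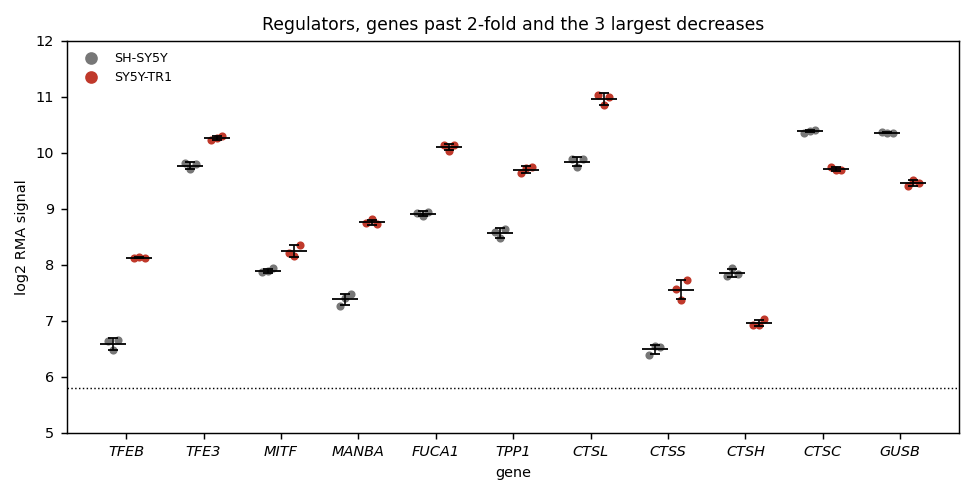
Log2 RMA signal (y axis) on each of the 3 arrays of SH-SY5Y (grey) and SY5Y-TR1 (red) for TFEB, TFE3, MITF, the other 5 genes past 2-fold and the 3 largest decreases; black bars show means with their SD, and a dotted line marks the background level of 5.80. TFEB goes from means of 6.59 to 8.12 and GUSB from 10.36 to 9.46, with no overlap of the lines for any gene drawn.

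The E-box letters that these factors bind were looked for in RefSeq promoter windows of 300 bases, which reach from 250 bases before a gene's start to 50 after it (GRCh38.p14). Windows were at hand for 35 of the 48 members. CACGTG, which reads the same on both strands, was found in 11 of the 35 (31.4%) and in 7.43% of all 27305 windows. The longer TCACGTGA, which is also its own reverse complement and contains the shorter letters, was found in 7 members (20.0%) and in 1.04% of all windows. Among the 15384 tested genes with a window, 1.45% held it. The 7 stretches are shown because they carry the regulators' letters, printed on the strand of the gene with the match in capitals, and the copy farther upstream is given where a window held 2.

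ATP6V0D1: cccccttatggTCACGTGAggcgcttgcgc
CLN3: cgcgggtgctgTCACGTGAtccgacaaacg
CTSA: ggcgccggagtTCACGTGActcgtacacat
GAA: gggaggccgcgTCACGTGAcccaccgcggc
GALNS: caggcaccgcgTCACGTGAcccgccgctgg
LAMP1: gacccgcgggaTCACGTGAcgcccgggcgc
MCOLN1: accagaggcggTCACGTGAggggctctggg

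These stretches lie at chr16:67481199-67481228 (minus strand) for ATP6V0D1, chr16:28492058-28492087 (minus strand) for CLN3 and chr20:45891298-45891327 (plus strand) for CTSA. The others lie at chr17:80101493-80101522 (plus strand) for GAA, chr16:88857104-88857133 (minus strand) for GALNS, chr13:113297199-113297228 (plus strand) for LAMP1 and chr19:7522571-7522600 (plus strand) for MCOLN1. GAA, LAMP1 and MCOLN1 each held 2 copies of the 8 letters, and LAMP1 held the 6-letter core 6 times.

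Of the 7 members with the longer letters, the 4 genes ATP6V0D1, CTSA, GALNS and LAMP1 were higher, while CLN3, GAA and MCOLN1 did not pass. Their median log2 fold change was 0.39, beside 0.61 for the 27 measured members whose window lacked the letters. Over all tested genes the medians were 0.03 with the letters and 0.04 without, and 35.4% and 29.4% were higher. Lower calls numbered 74 among the 223 genes with the letters and 3880 among the 15161 without. For the shorter CACGTG, 29.1% of tested genes with it and 29.5% without it were higher. These differences were not tested. A match describes letters in the window and shows neither binding nor a cause.

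Among the membrane proteins, 4 of 7 were higher (57.1%, beside 37.1% of all genes above the background level) and 3 did not pass. LAMP1 and LAMP2 encode the most abundant glycoproteins of the lysosomal membrane. LAMP1 read 12.74, 12.71 and 12.70 in SH-SY5Y and 13.24, 13.24 and 13.21 in SY5Y-TR1, which is 1.43-fold higher (standard error 0.04 on the log2 scale, adjusted p = 2.89e-05 from limma). LAMP2 read 10.14, 10.07 and 10.09 against 10.80, 10.95 and 10.91 on its brightest probe set, a 1.73-fold difference (adjusted p = 1.34e-05 from limma). The other 3 LAMP2 probe sets rose further, by 2.68-fold, 2.99-fold and 2.73-fold. LAMP2 transcripts end in alternative last exons, and the annotation used here does not say which of them each probe set reads.

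CD63, a tetraspanin of late endosomes and lysosomes, read 12.78, 12.73 and 12.75 in SH-SY5Y and 13.37, 13.32 and 13.34 in SY5Y-TR1, 1.51-fold higher. NPC1, which passes cholesterol out of the lysosome, read 9.07, 9.07 and 9.09 against 9.70, 9.92 and 9.95, 1.72-fold higher (adjusted p = 6.86e-05 from limma). The members that did not pass were spread around 0. The calcium channel gene MCOLN1 had a log2 fold change of 0.01 (95% interval -0.11 to 0.13) and CLN3, mutated in juvenile Batten disease, one of -0.07 (-0.23 to 0.09). SCARB2, the receptor that carries glucocerebrosidase to lysosomes, read 13.00, 13.03 and 13.04 in SH-SY5Y and 12.88, 12.92 and 12.93 in SY5Y-TR1. Its lines did not overlap, but the log2 fold change of -0.11 missed the limit (adjusted p = 0.0522 from limma). SCARB2 passed as lower under 7 alternatives, among them centring on housekeeping genes (log2 fold change -0.21).

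All 3 proton pump genes of the list were higher, each by less than 1.5-fold. ATP6V1H, a regulatory subunit of the cytoplasmic part, was 1.38-fold higher, ATP6V0D1 of the membrane part 1.31-fold and the accessory subunit ATP6AP1 1.24-fold (adjusted p = 0.000347, 0.000252 and 0.000574 from limma). The ATP6V1H probe set without a shared-sequence name that was used in its place lay at or under the background level in both lines. Beyond the list, 10 of 20 other subunit genes were higher, 6 lower and 4 did not pass, with 0 past 2-fold in either direction by limma and log2 fold changes from -0.68 to 0.74. These shares of 50% and 30% stand beside 28.5% and 24.3% of all genes. Over the genes above the background level the rates were 37.1% and 34.1%. For the 16 of these 20 subunit genes above that level the median log2 fold change was 0.38, beside 0.03 for all genes above it.

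The proteases divided into genes that rose and genes that fell. Of 13, 8 were higher (61.5%), 4 lower (30.8%), and CTSZ did not pass (log2 fold change -0.03, 95% interval -0.22 to 0.15). Over all genes above the background level 37.1% were higher and 34.1% lower, so the share of proteases that fell was near that rate. TPP1, the tripeptidyl peptidase lost in late infantile Batten disease, read 8.58, 8.48 and 8.64 in SH-SY5Y and 9.63, 9.73 and 9.74 in SY5Y-TR1. The fold was 2.19 (standard error 0.06 on the log2 scale, adjusted p = 3.94e-06 from limma). CTSL, a cysteine endopeptidase, read 9.89, 9.75 and 9.88 against 11.03, 10.85 and 11.00, 2.18-fold higher (standard error 0.07 on the log2 scale, adjusted p = 8.68e-06 from limma). For both genes every SY5Y-TR1 array was about a doubling above the SH-SY5Y arrays. TPP1 stayed under 2-fold with the mean of its 4 probe sets (log2 fold change 0.88) and with its only probe set free of a shared-sequence name (0.45).

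CTSS, a cysteine protease best known from antigen-presenting cells, read 6.39, 6.54 and 6.53 in SH-SY5Y and 7.56, 7.37 and 7.72 in SY5Y-TR1. It was 2.09-fold higher (adjusted p = 6.13e-05 from limma), and its SY5Y-TR1 arrays were more scattered than those of most members. Without SY5Y-TR1 replicate 3 (log2 fold change 0.98), with arrays centred on housekeeping genes (0.96) or on probe sets without shared-sequence names (0.98) it stayed under 2-fold. Of 10 measured markers of macrophages and osteoclasts, 7 lay at or under the background level on all 6 arrays, among them PTPRC, CD14, CD163, TYROBP and FCER1G. CSF1R, ITGAM and AIF1 were above it on some or all arrays. CSF1R was 1.33-fold higher, ITGAM did not pass although its lines did not overlap (log2 fold change 0.12, adjusted p = 0.0933 from limma), AIF1 did not pass, and the summed linear signal of the 10 was 330 to 349 in SH-SY5Y and 369 to 377 in SY5Y-TR1.

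Other proteases rose by less. CTSB, an abundant cysteine protease with endopeptidase and dipeptidase activity, read 11.22, 11.20 and 11.23 against 12.13, 12.08 and 12.15 in SY5Y-TR1, 1.87-fold higher (adjusted p = 2.11e-06 from limma), and all 5 of its probe sets passed as higher. The aspartic protease gene CTSD was 1.70-fold higher, CTSA, whose product shields beta-galactosidase and neuraminidase, 1.68-fold, CTSO 1.60-fold and the asparaginyl endopeptidase gene LGMN 1.45-fold. These 4 genes had adjusted p-values from limma between 4.71e-06 and 0.000117.

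The proteases that fell include aminopeptidases of the papain family. CTSH, mainly an aminopeptidase, read 7.79, 7.94 and 7.83 in SH-SY5Y and 6.92, 6.92 and 7.03 in SY5Y-TR1, a 1.86-fold decrease (adjusted p = 1.15e-05 from limma). CTSC, the dipeptidyl peptidase that activates granule serine proteases of immune cells, read 10.36, 10.38 and 10.41 against 9.74, 9.69 and 9.70, a 1.60-fold decrease (adjusted p = 8.19e-06 from limma). All 4 CTSC probe sets were lower, with log2 fold changes from -1.16 to -0.18. CTSF was 1.24-fold lower. CTSK, the collagen-degrading protease of osteoclasts, read 7.59, 7.34 and 7.37 in SH-SY5Y and 6.89, 7.27 and 7.02 in SY5Y-TR1. The gap between the nearest arrays of the lines was small, and its call (log2 fold change -0.37, adjusted p = 0.0258 from limma) was lost without SH-SY5Y replicate 1 (adjusted p = 0.0773), SY5Y-TR1 replicate 1 (0.0767) or SY5Y-TR1 replicate 3 (0.0718).

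**Figure D3:**
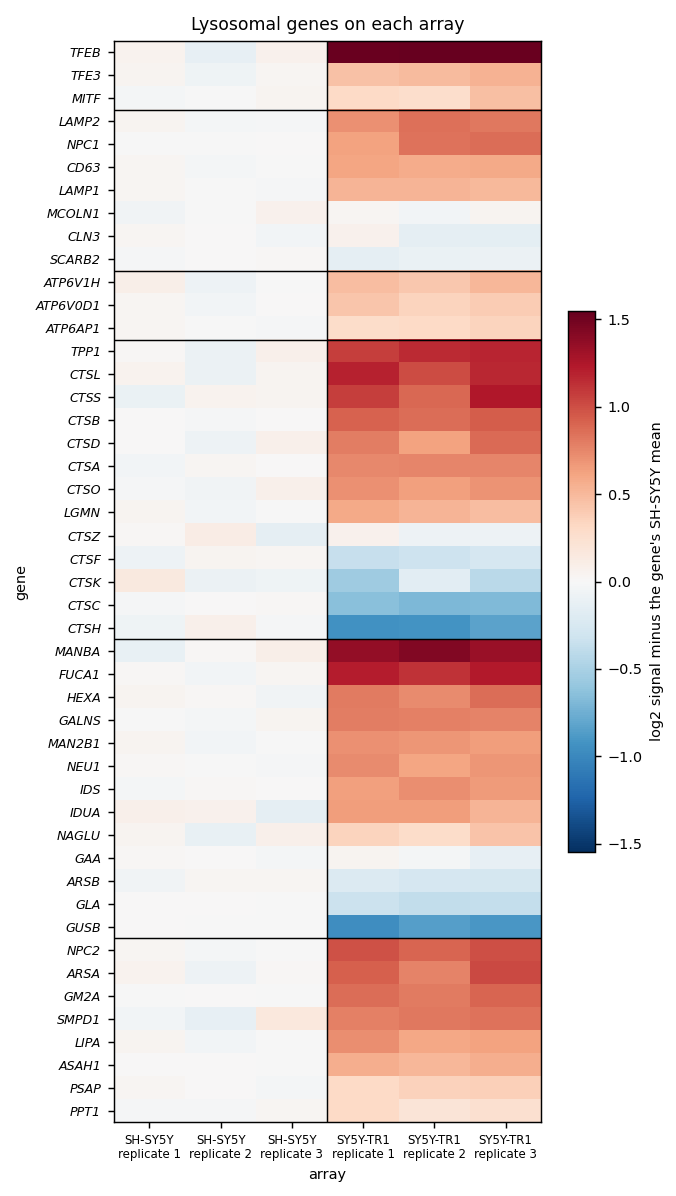
Log2 signal of each measured lysosomal gene (y axis) on each array (x axis), minus the gene's SH-SY5Y mean, so that red is higher and blue lower than in SH-SY5Y; black lines separate the roles, in the order regulators, membrane proteins, proton pump, proteases, glycan and sulfate enzymes, and lipid enzymes. The 3 SY5Y-TR1 columns look alike, with TFEB and MANBA darkest red and CTSH and GUSB darkest blue.

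Enzymes of glycan and sulfate breakdown also moved in both directions, with 9 of 13 higher, 3 lower and GAA not passing. These shares were 69.2% and 23.1%, beside 37.1% and 34.1% of all genes above the background level. MANBA, the beta-mannosidase gene, read 7.27, 7.40 and 7.47 in SH-SY5Y and 8.74, 8.81 and 8.72 in SY5Y-TR1. At 2.60-fold (log2 fold change 1.38, limma's adjusted p = 2.05e-06, standard error 0.06) it ranked next to TFEB on the brightest probe sets. FUCA1, which removes fucose, read 8.93, 8.86 and 8.94 against 10.13, 10.03 and 10.14, 2.28-fold higher (adjusted p = 1.27e-06 from limma). The mean with its other probe set, which lay at or under the background level, gave a log2 fold change of 0.70.

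The other increases ran from 1.28-fold to 1.74-fold. HEXA, a subunit of the hexosaminidase deficient in Tay-Sachs disease, was 1.74-fold higher and GALNS, a sulfatase of keratan sulfate breakdown, 1.72-fold. The alpha-mannosidase gene MAN2B1 was 1.60-fold higher, the sialidase gene NEU1 and the iduronate sulfatase gene IDS each 1.59-fold, and the iduronidase gene IDUA 1.52-fold. Another IDUA probe set, with means of 5.98 and 6.21 close to the background level, did not pass (log2 fold change 0.22). NAGLU, which acts on heparan sulfate, was 1.28-fold higher. HEXA did not pass on its brightest probe set without a shared-sequence name (log2 fold change 0.15). That probe set had means of 5.88 in SH-SY5Y and 6.03 in SY5Y-TR1, close to the background level. The corresponding NAGLU probe set lay at or under the background level in both lines.

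GUSB, the lysosomal beta-glucuronidase that often serves as a reference gene in RT-PCR, had the largest decrease of the members on the brightest probe sets. It read 10.36, 10.36 and 10.35 in SH-SY5Y and 9.40, 9.50 and 9.46 in SY5Y-TR1. The lines were well apart, at a 1.87-fold decrease (log2 fold change -0.90, limma's adjusted p = 2.85e-06, standard error 0.04), and with arrays set to equal housekeeping levels GUSB passed the 2-fold limit (log2 fold change -1.005). Averaged with its other probe set, which lay at or under the background level in both lines, GUSB had a log2 fold change of -0.36. That put it behind CTSH at -0.89, CTSC at -0.60, CTSK at -0.374 and, narrowly, GLA at -0.362. GLA, the alpha-galactosidase deficient in Fabry disease, read 10.15, 10.16 and 10.14 against 9.81, 9.77 and 9.78, a 1.28-fold decrease. ARSB, a sulfatase of dermatan sulfate, was 1.19-fold lower on its brightest probe set, and its call was lost when all its probe sets were averaged (log2 fold change -0.01, adjusted p = 0.889 from limma). GAA, the acid alpha-glucosidase deficient in Pompe disease, had a log2 fold change of -0.04 (95% interval -0.16 to 0.09).

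All 8 lipid enzymes and cofactors were higher, beside 37.1% of all genes above the background level, and 0 passed 2-fold by limma. NPC2, the soluble partner that hands cholesterol to NPC1, came closest, reading 11.53, 11.46 and 11.49 in SH-SY5Y and 12.48, 12.40 and 12.49 in SY5Y-TR1. Its fold was 1.95 (standard error 0.05 on the log2 scale, adjusted p = 2.64e-06 from limma). GM2A, the activator that presents ganglioside to hexosaminidase, read 8.47, 8.48 and 8.46 against 9.33, 9.27 and 9.38, 1.81-fold higher. SMPD1, the acid sphingomyelinase gene, read 8.24, 8.16 and 8.45 against 9.06, 9.11 and 9.12, 1.76-fold higher. On its brightest probe set without a shared-sequence name, with means of 5.99 and 6.19 close to the background level, SMPD1 was 1.14-fold higher. For NPC2, GM2A and SMPD1 on the brightest probe sets the lowest SY5Y-TR1 array was well above the highest SH-SY5Y array.

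LIPA, which hydrolyses cholesteryl esters and triglycerides, was 1.57-fold higher and the acid ceramidase gene ASAH1 1.46-fold. PSAP, the precursor of the saposins that assist sphingolipid enzymes, was 1.27-fold higher and the palmitoyl-protein thioesterase gene PPT1 1.19-fold. ARSA, which cleaves sulfatide, read 5.70, 5.56 and 5.66 in SH-SY5Y, at or under the background level, and 6.57, 6.41 and 6.66 in SY5Y-TR1. On this probe set it was at least 1.68-fold higher. The other ARSA probe set, with means of 5.62 and 5.85 close to the background level, did not pass (log2 fold change 0.23). For ASAH1 the brighter of the probe sets without a shared-sequence name read 10.07 in SH-SY5Y and 10.05 in SY5Y-TR1 and did not pass, whereas 3 other probe sets passed as higher.

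The further probe sets of these genes were not used to represent them and gave a second reading. Of 71 such probe sets, which belong to 28 members, 35 were higher and 4 lower, beside 20.8% and 19.8% of all 54613 probe sets on the array. Among the 45 above the background level, 30 were higher, 3 lower and 12 did not pass. The 3 lower ones were those of CTSC. The rates of 20.8% and 19.8% take in dim probe sets, and none was computed for probe sets above that level alone. For GUSB and IDS a probe set called in the direction opposite to the brightest lay at or under the background level in both lines. Probe sets of a gene share its RNA and the same 6 samples, so they are no further replicates.

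**Figure D4:**
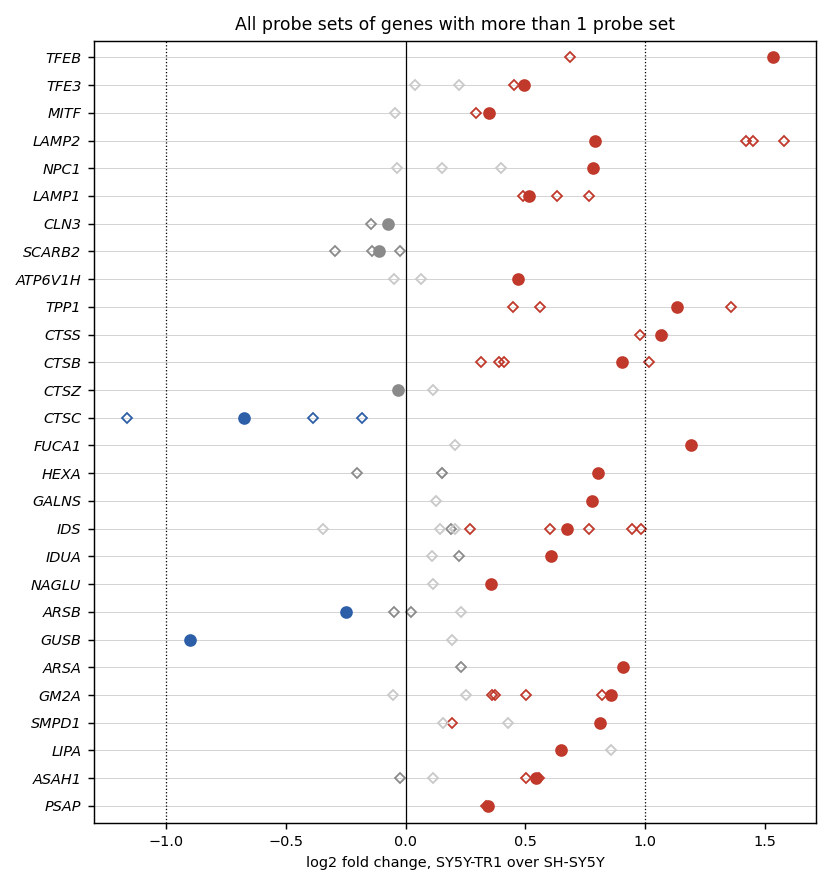
Difference in mean log2 signal between the lines (SY5Y-TR1 minus SH-SY5Y, x axis) for every probe set of the 28 members with more than 1 (y axis); filled circles are the brightest probe set and open diamonds the others, red for higher, blue for lower and dark grey for not passing at an adjusted p under 0.05 from limma, and light grey for other probe sets at or under the background level in both lines. The 3 dimmer LAMP2 probe sets lie between 1.42 and 1.58, beyond the brightest at 0.79, and all 4 CTSC probe sets lie below 0.

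Lysosomal genes outside the list were also higher more often than lower, with larger single changes. Of 24 other genes measured from a list of mainly hydrolases, 16 were higher at any fold (66.7%) and 3 lower (12.5%). Of these 24 genes 8 passed 2-fold as higher (33.3%). Over all genes the shares were 28.5% higher and 24.3% lower at any fold, and 5.36% higher at 2-fold. Over the genes above the background level, among them 21 of the 24, they were 37.1%, 34.1% and 7.9%. RNASET2, an acid ribonuclease, read 9.81, 9.78 and 9.85 in SH-SY5Y and 11.28, 11.20 and 11.23 in SY5Y-TR1, 2.68-fold higher, and CREG1 and the mannosidase gene MAN2B2 were each 2.51-fold higher. GGH, which trims folate polyglutamates, fell by 3.00-fold and CTSV, the closest relative of CTSL, by 2.66-fold. Of 27 other membrane protein genes, 25 of them above the background level, 18 were higher (66.7%) and 3 lower (11.1%). The sialic acid exporter gene SLC17A5 was 3.52-fold higher, LAMP3 at least 5.53-fold and LAPTM5 at least 1.69-fold, while LAMP5, a LAMP relative found in neurons, read 10.13, 10.06 and 10.01 in SH-SY5Y and fell to 5.50, 5.18 and 5.36, at least 19.3-fold lower.

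Genes that deliver enzymes to lysosomes were mostly higher, with 12 of 15 higher (80%), 1 lower (6.67%) and 2 not passing. Over all genes above the background level 37.1% were higher and 34.1% lower. CLN8, a carrier of new hydrolases out of the endoplasmic reticulum, was 3.58-fold higher, the sorting receptor gene SORL1 2.85-fold and SUMF1, which activates sulfatases, 2.08-fold. Of 26 autophagy genes 16 were higher (61.5%) and 1 lower (3.85%), and the other 9 did not pass. WIPI1, which binds phosphoinositides on forming autophagosomes, read 8.18, 8.05 and 8.28 against 10.84, 10.79 and 10.81, 6.23-fold higher (adjusted p = 1.19e-07 from limma). The cargo receptor gene OPTN was 2.89-fold higher and BECN1, of the lipid kinase complex that starts autophagosomes, 2.21-fold.

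The mTORC1 control genes on the lysosomal surface were divided, with 9 of 20 higher, 5 lower and 6 not passing, and a median log2 fold change of 0.14. The shares of 45% and 25% stand beside 28.5% and 24.3% of all genes. With 19 of the 20 genes above the background level, they were near the 37.1% and 34.1% of all genes above it. RRAGD, a Rag GTPase gene, read 8.73, 8.60 and 8.70 in SH-SY5Y and 7.28, 7.33 and 7.31 in SY5Y-TR1, a 2.59-fold decrease (adjusted p = 6.83e-07 from limma), and it was the only gene of this list past 2-fold. Of 9 cystatin genes, which encode inhibitors of cysteine cathepsins, 4 were higher (44.4%, beside 28.5% of all genes) and 5 did not pass. CSTA, among those called higher, lay at or under the background level in both lines. None of these lists was compared with the others by a test.

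**Figure D5:**
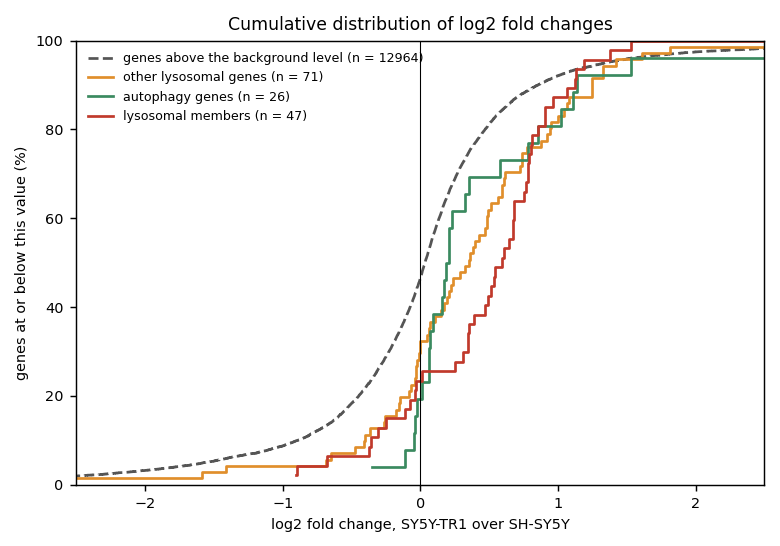
Share of genes (y axis, in percent) at or below each log2 fold change (x axis, SY5Y-TR1 over SH-SY5Y) for the 47 lysosomal members (red), 71 other lysosomal genes (orange), 26 autophagy genes (green) and the 12964 genes above the background level (dashed grey); the axis ends at 2.5 on either side. The medians are 0.59, 0.35, 0.20 and 0.03.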

How the data were processed

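RNA of 3 SH-SY5Y and 3 SY5Y-TR1 samples was measured on Affymetrix U133 Plus 2.0 arrays. The values, deposited on the log2 scale, had been made with RMA by Expression Console per the submitters' processing notes (version not given in the sources used here). RMA subtracts background, equalizes the distribution of signals between arrays and combines the probes of a probe set, so array-wide differences in RNA amount are not kept. Each array's median was 5.56 to 5.59, and precision is limited by how many arrays there were.

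Probe sets were named through the platform annotation (RefSeq symbols, GRCh38.p14 table). Without the 62 control probe sets there were 54613 to test, and 19775 genes were represented by the brightest probe set with 1 symbol. Lines were compared with limma 3.58.1 in R 4.3.3 over all genes, with Benjamini-Hochberg adjustment, and called at an adjusted p under 0.05 with a fold of at least 2, or at any fold. The background level is the 90th percentile of mean signal over 39 genes that belong to unrelated tissues. Where a line did not exceed it on any array, the fold is a lower bound. Fits were tested on simulated data. Members and lists were chosen with earlier results of these data known. Named genes are all measured members, AXL, and up to 3 of the largest 2-fold increases and decreases of each other pathway list. Markers were named as a check of cell type. Some listed genes were not analysed here. Alternatives were other probe set choices, centring, a second quantile normalization, filters on dim genes, a replicate block, a trended robust variance, the methods' t-test and each array left out.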

Additional observations from a re-analysis of the deposited data

How the results depend on the processing

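Of 741 comparisons of a single member under an alternative, 721 kept their direction and side of the limit, 10 lost significance, 8 gained it and 2 turned, on probe sets without shared-sequence names, where ASAH1 had a log2 fold change of -0.025 and ATP6V1H of -0.047, neither passing. Of the gains 7 were in SCARB2, and CLN3 passed as lower without SY5Y-TR1 replicate 1 (-0.14, adjusted p = 0.0466 from limma). The members' median of 0.59 was 0.39 with the mean of all probe sets, 0.49 with arrays centred on housekeeping genes and 0.62 after quantile normalization again. Centring lowered the median of all genes from 0.04 to -0.06, so the distance between both medians stayed 0.55. It also brought 1 member, GUSB, past 2-fold as lower. Probe sets without shared-sequence names cover 36 members, of which 26 were higher and 3 lower at any fold. The lower members CTSF, CTSH and CTSK have no such probe set and were not covered there. With each array left out, the median ran from 0.54 to 0.61, the members higher were 35 each time, those lower 6 to 7, and at 2-fold 5 to 6 were higher and 0 lower, CTSS being lost without SY5Y-TR1 replicate 3. With a replicate block 35 members were higher and 6 lower, CTSK not passing (adjusted p = 0.0635 from limma). By the methods' t-test 35 were higher and 7 lower after Benjamini-Hochberg adjustment, with SCARB2 in place of CTSK. Correlations of same-numbered deviations ran from 0.00 to 0.03, and not every sample correlated best with its own number, so no pairing by number was seen. The labels do not say whether same-numbered samples were handled together, and these correlations cannot decide it. The filter at the 95th percentile of the background genes was chosen after seeing the data and gave 35 higher and 8 lower. The values of ATP6V1H on those probe sets come from signal at or under the background level in both lines and show no direction.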
